A study of Homo sapiens with 18 samples.

Results

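The 10 genes described here are those of MHC class II antigen presentation: the classical chains HLA-DRA, HLA-DRB1, HLA-DPA1, HLA-DPB1, HLA-DQA1 and HLA-DQB1, the peptide exchange chains HLA-DMA and HLA-DMB, the invariant chain CD74 and the transactivator CIITA. They were chosen as a known gene family and matched by symbol to 10 of the 35168 Ensembl gene identifiers in the count tables, each to 1 identifier on the primary assembly. RNA was sequenced from H1, an established line of human embryonic stem cells (hESCs), during a serum-free, cytokine-driven definitive hematopoietic differentiation. USB1 mutant cells carried a frameshift deletion of an A in USB1, made with CRISPR/Cas9 in manually picked clones, and were compared with wild type (WT) H1 cells. The number of clones behind the libraries is not given in the sources used here. The USB1 protein is an exonuclease that shortens the 3′ ends of U6 snRNA and other small RNAs. Cells were taken at day 0 (D0, undifferentiated hESCs), day 16 (D16, described in the study as CD34+/CD45+ hematopoietic progenitors) and day 30 (D30, mature blood cells), with 3 USB1 mutant and 3 WT libraries at each day and 18 in all. The sources do not say whether replicates were separate cultures, and the spread that each p-value is set against may therefore be technical. Days were also harvested at different times, and day and batch cannot be told apart.

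MHC class II molecules are pairs of an alpha and a beta chain that show peptides from endocytosed proteins to CD4 T cells. Dendritic cells, B cells and macrophages make them constitutively or on stimulation, while most other cells make them only after interferon gamma. CD74 fills the groove of new class II pairs in the endoplasmic reticulum and directs them to endosomes, where cathepsins degrade CD74 and the HLA-DM pair (HLA-DMA with HLA-DMB) exchanges its last fragment for peptide. CIITA binds no DNA itself and acts on class II, HLA-DM and CD74 promoters through a complex of RFX, CREB and NF-Y proteins that sits on the X and Y boxes.

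Of the 10 members, 8 lie on chromosome 6 in the class II region, between the start of HLA-DRA and the end of HLA-DPB1 (chr6:32439878-33089696, GRCh38). CD74 lies on chromosome 5 (chr5:150401637-150412969, minus strand) and CIITA on chromosome 16 (chr16:10866222-10943021, plus strand). RefSeq promoters (GRCh38.p14, from 250 bases before to 50 after the start) were matched for 8 members. They were searched on both strands for the letters of an X box core (AGNNA, NNN and ATG in a row, with N for any base) and of a Y box (ATTGG, the inverted CCAAT box), with overlapping pairs not counted. An X box followed on the same strand by a Y box within 30 bases was found in 4 members, HLA-DRB1, HLA-DPB1, HLA-DQB1 and HLA-DMA, with 22, 22, 22 and 23 bases between them. The same arrangement was present in 0.396% of 35116 promoters, while the Y box letters alone were in 34.6% of them and in 7 members. The windows of these 4 are shown, 80 bases each and 5′ to 3′ on the gene's strand, because they are where CIITA is known to be recruited, and the capitals mark the X box and then the Y box.
HLA-DRB1 (chr6:32589869-32589948, minus strand): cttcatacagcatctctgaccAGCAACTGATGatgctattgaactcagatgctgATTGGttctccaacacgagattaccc
HLA-DPB1 (chr6:33075837-33075916, plus strand): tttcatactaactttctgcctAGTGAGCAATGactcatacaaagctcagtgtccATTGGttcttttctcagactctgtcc
HLA-DQB1 (chr6:32666720-32666799, minus strand): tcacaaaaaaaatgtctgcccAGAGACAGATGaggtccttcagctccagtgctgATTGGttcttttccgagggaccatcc
HLA-DMA (chr6:32953152-32953231, minus strand): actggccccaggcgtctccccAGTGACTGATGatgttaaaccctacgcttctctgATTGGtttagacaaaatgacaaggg

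The deposited values of the chromosome 6 members have a limit that CD74 and CIITA do not share. Total counts ran from 4125125 to 19368927 per library. Of the 146 protein-coding genes between GABBR1 and KIFC1, the stretch that holds the MHC, 21 (14.4%) were listed at 0 in all 18 libraries, against 38 of 879 (4.32%) on the rest of chromosome 6. The 21 include PPP1R11, CSNK2B and HSPA1A, genes that nearly every cell uses. Libraries at 0 beside replicates with at least 100 counts were found for 10 of the 146 genes (6.85%) and for 1 of the other 879 (0.114%). HLA-DPA1 was one of the 10, with 170, 0 and 60 counts in the WT libraries of D30. HLA-DMA was listed at 0 in every library, HLA-DRA held 7 counts in 3 libraries and HLA-DMB 13 counts in 4 libraries. For these 3 members no level is drawn from a value of 0. HLA-DRB1 and HLA-DRB5 are close paralogs, so their counts could be split between genes. HLA-DPA1 and HLA-DPB1 overlap on opposite strands, as do CIITA and DEXI. The libraries were strand-specific, and whether these overlapping pairs shared any counts was not tested.

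Levels are given as CPM (counts relative to the size of their library), on library sizes scaled over all 18 libraries, and genotype differences as log2 fold changes ± standard error from edgeR's quasi-likelihood test on the 6 libraries of a day, with a call meaning an adjusted p (Benjamini-Hochberg) under 0.1. Leaving out HLA-DRA, HLA-DMA and HLA-DMB, whose levels could not be drawn, CD74 was the most abundant member per length, in TPM. This held in each library of D16 and D30. At D30 CD74 reached 899, 240 and 415 TPM in mutant libraries and 1178, 355 and 239 TPM in WT libraries. In RNA from a mixed culture, fewer cells of a type and less RNA per cell cannot be told apart.

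In undifferentiated hESCs most members had too few counts to be tested and none was called between the genotypes. Only CD74, CIITA and HLA-DPB1 had enough counts to be tested. The share called over all genes was 2.93% (432 of 14719). CD74 had 12.3, 10.6 and 12.05 CPM in mutant libraries and 9.58, 7.24 and 7.63 CPM in WT libraries. The ranges did not overlap, as was the case for 20.8% of genes at D0, and the difference of 0.52 ± 0.16 had an adjusted p of 0.166 in edgeR. With the replicate number as a block, it was 0.0635, so the call depends on the pairing. CIITA had 0.828, 1.18 and 1.32 CPM in mutant libraries and 1.70, 1.74 and 1.03 CPM in WT libraries, which overlapped (−0.43 ± 0.33, adjusted p = 0.599). HLA-DPB1, a beta chain, was the most abundant classical chain in these cells per length, with HLA-DRA left out as not measurable. It held 22, 45 and 22 counts in mutant and 48, 34 and 34 counts in WT libraries. Its effective transcript lengths ran from 286 to 462 bases. Its 6.09, 12.8 and 7.55 TPM in mutant libraries and 12.5, 9.49 and 14.6 TPM in WT libraries did not differ beyond their spread. DESeq2 called none of the 3 members either, and 1 had an unadjusted p under 0.05 in edgeR.

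**Figure D1:**
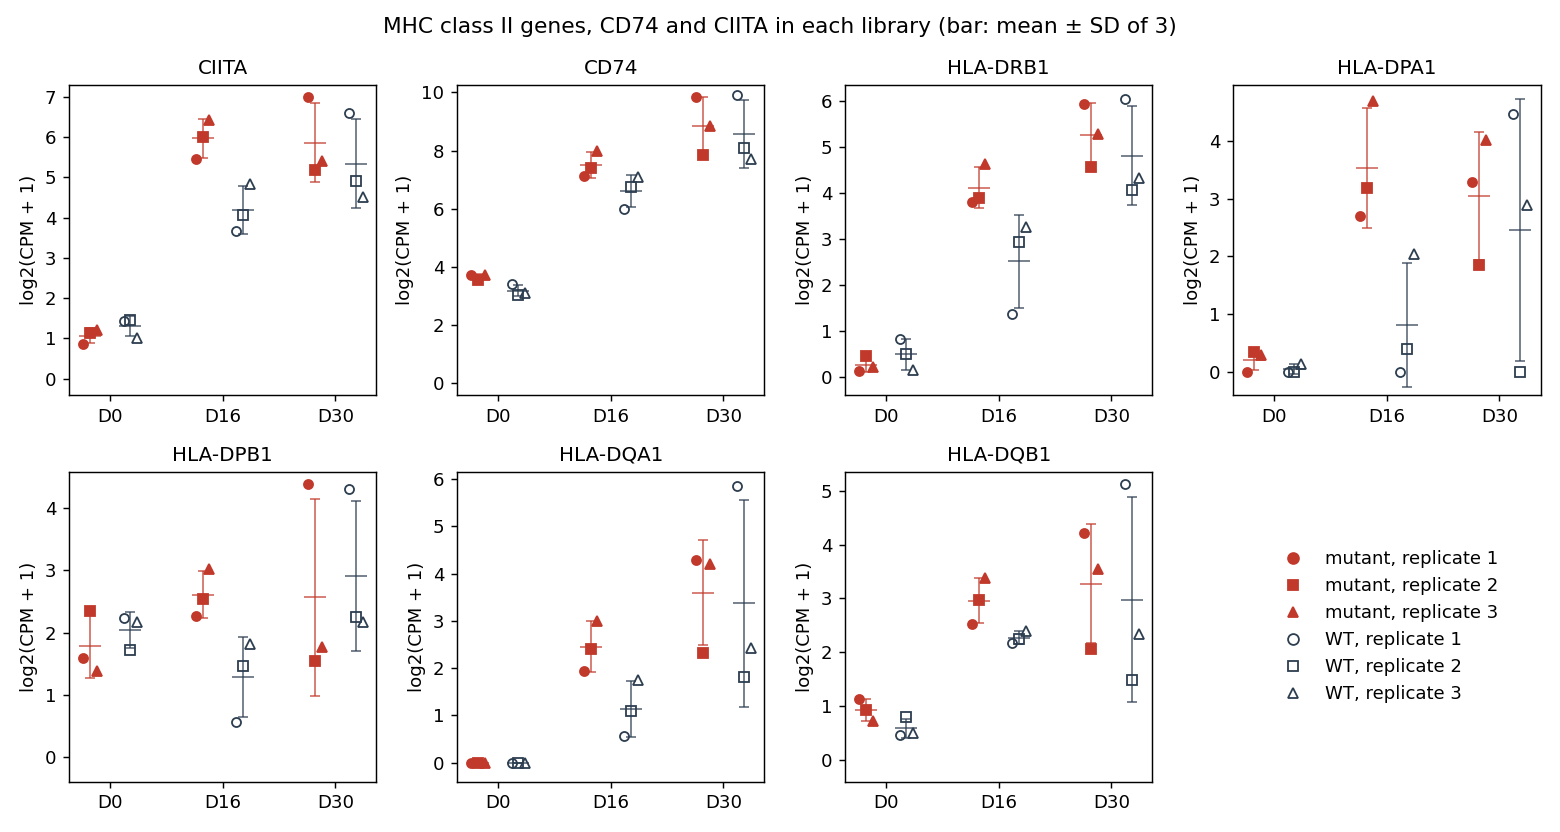
Level of each tested member on the log2(CPM + 1) scale (y axis) at D0, D16 and D30 (x axis), with USB1 mutant libraries filled and left of the open WT libraries, a marker shape for each replicate number, and bars for the mean ± SD of 3 libraries. The 3 mutant libraries lie above the 3 WT libraries in all 7 panels at D16, and the genotypes overlap in all 7 panels at D30.

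At D16, the 7 members that could be tested were all higher in USB1 mutant cells than in WT cells, and in each the 3 mutant libraries lay above the 3 WT libraries. The median log2 fold change of the 7 was 1.63, against 0.01 over all genes tested. All 7 were called, on a background of 28.5% of genes called in either direction (4135 of 14528) and 13.1% called higher (1909 genes). Mutant libraries lay above all WT libraries for 20.8% of genes.

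CIITA, the master regulator of the group, had the smallest adjusted p. It stood at 42.8, 63.4 and 85.0 CPM in mutant progenitors and at 11.8, 15.6 and 27.5 CPM in WT progenitors. The lowest mutant library was above the highest WT library, and the difference was 1.75 ± 0.30 (3.37-fold, adjusted p = 0.00298). It was called in all 16 alternative settings, with log2 fold changes between 1.496 and 2.154 and adjusted p-values between 5.5e-09 and 0.0357.

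CD74 had 139, 167 and 255 CPM in mutant progenitors and 62.9, 107 and 135 CPM in WT progenitors. Its lowest mutant library was only just above its highest WT library. The difference was 0.84 ± 0.27 (1.79-fold, adjusted p = 0.0487). The call was lost without WT replicate 1 (adjusted p = 0.140), without WT replicate 2 (0.106), without mutant replicate 3 (0.181), in the fit over 18 libraries (0.230) and without both replicates 1 or both replicates 2.

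HLA-DRB1, the most variable class II beta chain between people and the partner of HLA-DRA, had 13.0, 13.9 and 23.6 CPM in mutant progenitors and 1.56, 6.59 and 8.54 CPM in WT progenitors. The difference was 1.51 ± 0.42 (2.85-fold, adjusted p = 0.029), and it was lost without mutant replicate 3 (0.113). The close paralog HLA-DRB5, not a member, moved in the same direction, with 1.87, 1.81 and 2.93 CPM in mutant and 0.241, 0.377 and 0.663 CPM in WT progenitors (2.26 ± 0.45, adjusted p = 0.00589).

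HLA-DPA1, the alpha chain of HLA-DP, had 68, 103 and 356 counts in mutant progenitors and 0, 5 and 42 counts in WT progenitors. It is one of the MHC region genes noted above for libraries at 0 beside high replicates. Its effective transcript length at D16 was 347 bases in WT replicate 2 and 1844.5 bases in WT replicate 3. Its fitted difference of 3.37 ± 0.83 (adjusted p = 0.0172) was the largest of the members but the least certain in size, with 2.47 to 5.88 over the alternatives. DESeq2 did not call it (adjusted p = 0.106). HLA-DPB1, its partner chain, had 3.82, 4.79 and 7.11 CPM in mutant progenitors and 0.481, 1.76 and 2.50 CPM in WT progenitors (1.63 ± 0.44, adjusted p = 0.0255). That call was lost without mutant replicate 3 (0.102), in the fit over 18 libraries (0.166) and without both replicates 2.

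HLA-DQA1, the alpha chain of HLA-DQ, had 2.84, 4.32 and 7.04 CPM in mutant progenitors and 0.481, 1.13 and 2.36 CPM in WT progenitors (1.75 ± 0.48, adjusted p = 0.0287). It was lost without WT replicate 2 (0.102), without mutant replicate 3 (0.121), in the fit over 18 libraries (0.270) and without both replicates 2. HLA-DQB1, its beta chain, had the smallest difference of the 7, with 4.79, 6.83 and 9.41 CPM in mutant and 3.49, 3.77 and 4.27 CPM in WT progenitors (0.83 ± 0.28, adjusted p = 0.0613). It was called in 6 of 15 alternatives. The call was lost without WT replicate 1 (0.153), WT replicate 2 (0.164), mutant replicate 2 (0.122) or mutant replicate 3 (0.247), with the deposited lengths as offsets (0.153), in the fit over 18 libraries (0.456) and without both libraries of any 1 number.

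Mutant replicate 3 was the highest and mutant replicate 1 the lowest of the 3 mutant libraries for all 7 members, and WT replicates 3 and 1 held the same places among the WT libraries for all 7. Without mutant replicate 3, 2 of the 7 were called, CIITA (adjusted p = 0.0107) and HLA-DPA1 (0.0811). Without WT replicate 2, 4 were called. In the fit over 18 libraries, whose estimate of the spread includes D30, 3 were called: CIITA (0.0211), HLA-DPA1 (0.0532) and HLA-DRB1 (0.0579). CIITA and CD74, the pair outside the MHC, were both among the 7 called in edgeR.

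**Figure D2:**
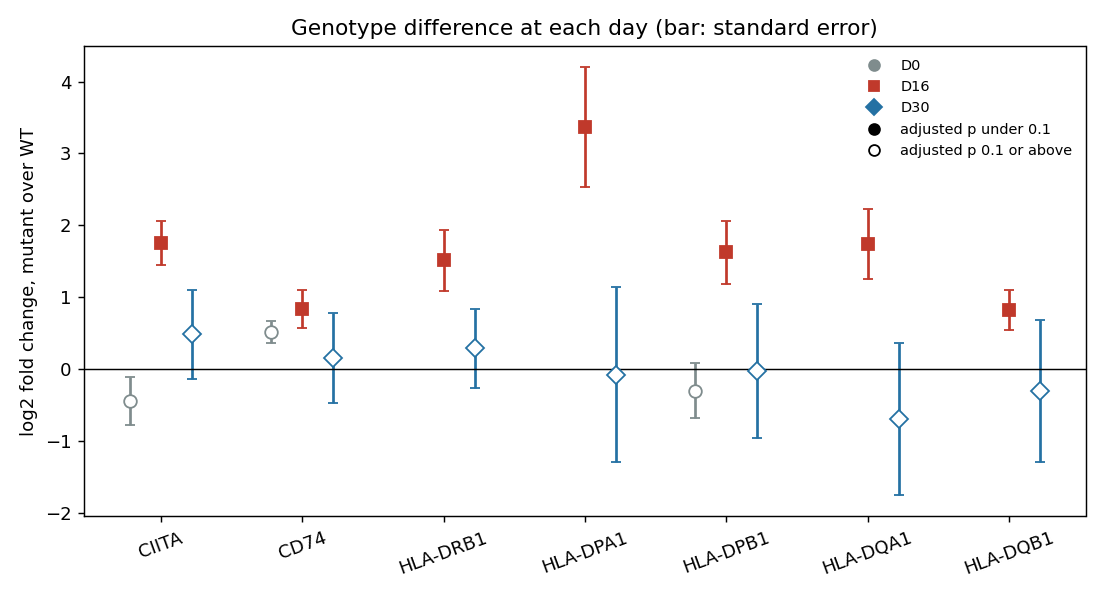
Log2 fold change of USB1 mutant over WT (y axis) for each tested member (x axis) at D0, D16 and D30, with bars for the standard error and filled symbols for an adjusted p under 0.1. The 7 values of D16 are filled and run from 0.83 to 3.37, while those of D0 and D30 are open.

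The ratio of CIITA counts to CD74 counts in the same library does not depend on library scaling. At D16 it was 0.308, 0.380 and 0.333 in mutant libraries and 0.187, 0.146 and 0.203 in WT libraries, a difference of 0.94 on the log2 scale with no overlap. At D0 it ran the other way, with 0.0672, 0.111 and 0.1098 in mutant libraries and 0.177, 0.241 and 0.135 in WT libraries (−0.94). The D0 values rested on few CIITA counts, 9, 13 and 18 in mutant and 22, 26 and 10 in WT libraries. Effective transcript lengths of CIITA at D0 ran from 3436 to 12201 bases, which a ratio of counts does not correct for. At D30 the ratio was 0.138, 0.155 and 0.0901 in mutant libraries and 0.0992, 0.109 and 0.103 in WT libraries, which overlapped.

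The summed counts of HLA-DRB1, HLA-DPA1, HLA-DPB1, HLA-DQA1 and HLA-DQB1 relative to CD74 were also higher at D16. They came to 0.216, 0.227 and 0.282 in mutant libraries and 0.0956, 0.127 and 0.153 in WT libraries (0.96 on the log2 scale). Each of these D16 differences and the D0 difference of CIITA to CD74 had a two-sided exact permutation p of 0.1, the smallest that 3 against 3 can give, and an adjusted p of 0.2 over the 6 ratios tested. These ratios therefore could not pass a threshold of 0.05.

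**Figure D3:**
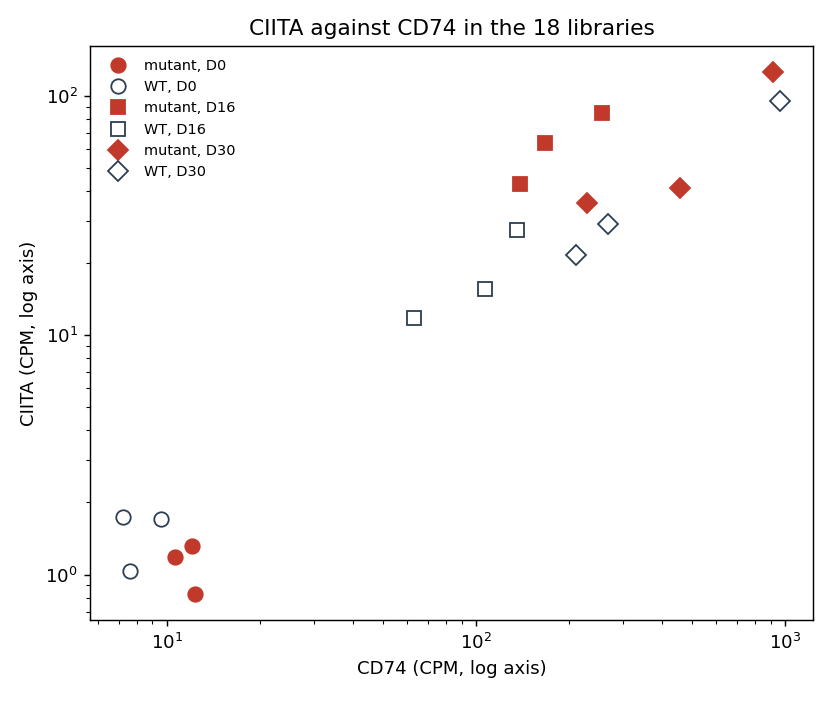
CIITA (y axis) against CD74 (x axis) in the 18 libraries, both in CPM on log axes, with USB1 mutant libraries filled and WT libraries open and a symbol for each day. At D16 the mutant libraries lie above the WT libraries in both CIITA and CD74, so the genotypes share no level of CD74 there. Replicate 1 of both genotypes stands at the top right at D30.

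At D30 no member was called between the genotypes, on a background of 20.6% of genes (2933 of 14263). The median log2 fold change of the 7 tested was −0.02, against −0.01 over all genes. DESeq2 called none, and none had an unadjusted p under 0.05 in edgeR. The spread between libraries was wide. CD74 had 914, 229 and 458 CPM in mutant blood cells and 962, 268 and 211 CPM in WT blood cells (0.15 ± 0.62, adjusted p = 0.898). CIITA had 126, 35.5 and 41.3 CPM in mutant cells and 95.4, 29.1 and 21.7 CPM in WT cells (0.49 ± 0.62, adjusted p = 0.646). The standard errors ran from 0.55 to 1.22.

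Replicate 1 of both genotypes stood apart at D30, holding the 2 highest of the 6 values for 6 of the 7 tested members. HLA-DQA1 had 18.4, 4.0015 and 17.3 CPM in mutant libraries and 57.2, 2.54 and 4.36 CPM in WT libraries. HLA-DPB1 had 20.1, 1.92 and 2.40 CPM in mutant libraries and 18.8, 3.78 and 3.51 CPM in WT libraries. HLA-DPA1 was the exception, with 8.82, 2.58 and 15.2 CPM in mutant libraries and 21.2, 0 and 6.38 CPM in WT libraries. Without both replicates 1, a setting chosen after seeing the data, none of the 7 was called. HLA-DPA1, HLA-DQA1 and HLA-DQB1 then had log2 fold changes of 1.51, 1.57 and 1.20 (adjusted p = 0.561, 0.170 and 0.292), against −0.07, −0.69 and −0.30 with all libraries.

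The remaining beta chains at D30 had values within this pattern. HLA-DRB1 had 60.5, 22.6 and 37.8 CPM in mutant libraries and 65.3, 15.6 and 19.02 CPM in WT libraries. HLA-DQB1 had 17.6, 3.17 and 10.7 CPM in mutant libraries and 33.7, 1.81 and 4.04 CPM in WT libraries. Both overlapped between the genotypes, as did all 7 tested members, while 35.7% of all genes had ranges apart at D30.

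Across the differentiation, the group rose in both genotypes. In WT cells, D16 against D0 gave 6 of 7 tested members called higher (background 76.3% called, 37.0% called higher), with CD74 at 3.64 ± 0.56, CIITA at 3.58 ± 0.65, HLA-DRB1 at 3.65 ± 0.79 and HLA-DQB1 at 2.85 ± 0.96 on the log2 scale. In mutant cells, D16 against D0 also gave 6 of 7 (background 72.9%, 36.9% higher), with CD74 at 4.001 ± 0.56, CIITA at 5.81 ± 0.69, HLA-DRB1 at 6.34 ± 0.87 and HLA-DQB1 at 2.93 ± 0.87. HLA-DPB1 was the exception in both, at 1.04 ± 0.78 in mutant cells (adjusted p = 0.246) and −0.92 ± 0.82 in WT cells (adjusted p = 0.327).

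HLA-DQA1 had 0 counts in all 6 libraries of D0. Set against 3 counts in the 3 D0 libraries together, the floor used for a group with none, its level at D16 was at least 57.4-fold higher in mutant cells (191 counts) and at least 17.9-fold higher in WT cells (54 counts). HLA-DPA1 was 79.1-fold higher at D16 than at D0 in mutant cells (527 against 6 counts, 95% exact counting interval 36.1 to 217). In WT cells 47 counts at D16 stood against 1 at D0. These bounds and intervals cover counting error only.

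From D16 to D30 the genotypes gave different counts of calls. In WT cells 7 of 7 members were called higher at D30 than at D16 (background 66.7% called, 31.6% called higher), among them CD74 (2.23 ± 0.50), HLA-DRB1 (2.51 ± 0.55) and CIITA (1.39 ± 0.51, adjusted p = 0.025). In mutant cells 2 of 7 were (background 69.8%, 34.7% higher), CD74 (1.51 ± 0.49, adjusted p = 0.012) and HLA-DRB1 (1.26 ± 0.52, adjusted p = 0.0407). CIITA in mutant cells was at 0.09 ± 0.49 (adjusted p = 0.884). Without replicate 1 of every group, WT cells kept 2 calls, CD74 (0.98, adjusted p = 0.00994) and HLA-DRB1 (1.19, adjusted p = 0.00885), while CIITA was at 0.25 in WT cells (adjusted p = 0.426). In mutant cells CIITA was then lower at D30, at −0.96 (adjusted p = 0.00727), as was HLA-DPB1 at −1.51 (adjusted p = 0.017).

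The day and genotype comparisons share libraries, so the difference between the genotypes' courses was tested as an interaction in the 18-library fit. None of the 7 members was called from D0 to D16 (background 7.61%), from D16 to D30 (20.5%) or from D0 to D30 (10.9%). HLA-DQA1, with 0 counts in every D0 library, had no usable estimate from D0 to D16 (standard error 12803). HLA-DPA1 had only 6 mutant counts and 1 WT count at D0 (standard error 7.94). Neither could be judged over an interval that starts at D0. At an unadjusted p under 0.05 there were 1, 1 and 0 members, and DESeq2 called 0 in each. The smallest adjusted p from D0 to D16 was that of CIITA (2.23 ± 1.01, adjusted p = 0.235), and from D16 to D30 that of HLA-DPA1 (−3.48 ± 1.57, adjusted p = 0.150). With replicate numbers as blocks within days, CIITA (2.25, adjusted p = 0.00303) and HLA-DPB1 (2.09, adjusted p = 0.0449) were called from D0 to D16. With the block, CIITA (−1.32, adjusted p = 0.0019), HLA-DPB1 (−2.15, adjusted p = 0.0181) and HLA-DRB1 (−1.21, adjusted p = 0.0687) were called from D16 to D30, although the numbers did not pair the D30 libraries. Without replicate 1 of every group, CIITA (−1.21, adjusted p = 0.0685) and HLA-DPB1 (−2.29, adjusted p = 0.0557) were called from D16 to D30. Over both intervals together, D30 against D0, all 7 members were called higher in mutant cells (background 82.2%, 41.0% higher) and in WT cells (background 81.8%, 39.7% higher). CD74 was 5.51 ± 0.60 higher in mutant cells and 5.88 ± 0.61 higher in WT cells.

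Of 7 proteins that bind class II promoters (RFX5, RFXANK, RFXAP, NFYA, NFYB, NFYC and CREB1), 2 were called lower and none higher at D16, a share near the 28.5% of all genes called, and none was called at D0 or D30. RFX5, the DNA-binding subunit of the RFX complex, had 44.9, 47.0 and 60.4 CPM in mutant and 64.5, 61.8 and 75.0 CPM in WT progenitors (−0.44 ± 0.15, adjusted p = 0.0587), and lost its call in 5 of 16 alternatives. RFXANK, its ankyrin-repeat partner, was at −0.33 ± 0.12 (adjusted p = 0.0804), and kept its call in 4 of 16 alternatives. At D0 the smallest p-values were those of RFXANK (0.41 ± 0.10, adjusted p = 0.111) and NFYB, a subunit of NF-Y (−0.22 ± 0.10, 0.3597). With the replicate block RFXANK was called at D0 (0.40, adjusted p = 0.0363). At D30 they were those of NFYA, another NF-Y subunit (−0.20 ± 0.14, 0.359), and NFYB (−0.33 ± 0.22, 0.361).

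Among 11 genes of interferon gamma signalling and of factors known to act on CIITA, 3 were called higher and 2 lower at D16. The share called over all genes was 28.5%. IRF8, a myeloid transcription factor, had 65.8, 76.8 and 120 CPM in mutant progenitors and 16.8, 24.6 and 48.5 CPM in WT progenitors, without overlap (1.5045 ± 0.33, adjusted p = 0.00988), and was called in all 16 alternatives. SPI1 (PU.1), also a myeloid factor, went the other way, with 147, 157 and 183 CPM in mutant and 229, 231 and 250 CPM in WT progenitors (−0.58 ± 0.13, adjusted p = 0.00983). PRDM1, a known repressor of CIITA in plasma cells, was higher in mutant progenitors (0.68 ± 0.21, adjusted p = 0.0468), though lower in mutant hESCs (−1.12 ± 0.21, adjusted p = 0.0369). SOCS1, which damps interferon signalling, was lower (−0.94 ± 0.30, adjusted p = 0.0467), with overlapping ranges. PRDM1 and SOCS1 at D16 lost their calls in 3 and 5 of 16 alternatives, SPI1 in 2 and PRDM1 at D0 in 5.

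At D30, 2 of the 11 genes of this list were called lower in mutant cells and none higher, near the 20.6% of all genes called. They were USF1, which binds a CIITA promoter (−0.61 ± 0.13, adjusted p = 0.0211), and IFNGR2, a chain of the interferon gamma receptor (−0.60 ± 0.16, adjusted p = 0.0391), which lost their calls in 2 and 5 of 16 alternatives. The median of the list was −0.10, against −0.01 over all genes.

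Of 15 genes for endosomal proteolysis and class II traffic, 4 were called higher and 3 lower at D16, against 28.5% of all genes called. IFI30, a lysosomal thiol reductase that unfolds antigens, had 66.9, 94.7 and 113 CPM in mutant and 171, 212 and 165 CPM in WT progenitors (−1.03 ± 0.19, adjusted p = 0.00373). LGMN, the protease legumain, had 14.9, 15.6 and 19.1 CPM in mutant and 2.89, 4.83 and 9.21 CPM in WT progenitors (1.49 ± 0.32, adjusted p = 0.00886). CD63, a tetraspanin of late endosomes (−0.79 ± 0.16, adjusted p = 0.00742), and CTSS, the cathepsin that cuts CD74 (−0.55 ± 0.13, adjusted p = 0.0149), were lower. The directions thus split within the list.

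At D30, 1 of the 15 was called higher and 2 were called lower, near the 20.6% of all genes called. MARCHF8, a ubiquitin ligase of membrane proteins, had 119, 112 and 139 CPM in mutant and 76.1, 53.7 and 54.1 CPM in WT blood cells (1.01 ± 0.18, adjusted p = 0.0105). IFI30 (−1.17 ± 0.22, adjusted p = 0.0133) and CTSS (−0.89 ± 0.23, adjusted p = 0.0379) were lower at D30 too. Costimulatory genes split as well, with 2 of 8 tested higher and 1 lower at D16, and 1 of 9 higher and 1 lower at D30. MHC class I genes, with their peptide loading genes and NLRC5, had 0 higher and 2 of 6 tested lower at D16, and 0 higher and 5 of 7 lower at D30, with the limit on MHC region values given above. Over all genes, 28.5% were called at D16 and 20.6% at D30.

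Of 17 dendritic cell markers, 10 could be tested at D16, of which 4 were called higher and 1 lower in mutant progenitors. Over all genes 28.5% were called at D16. Their summed level was 25.8 to 38.5 TPM in mutant libraries and 19.4 to 21.9 TPM in WT libraries, and CCL17 was at 0 in mutant and CCL17, CD1B and CD207 in WT libraries. The same list summed to 29.0 to 32.0 TPM in mutant and 28.6 to 33.3 TPM in WT hESCs at D0. The D16 sums are therefore no measure of dendritic cells among the progenitors. ZBTB46, a factor of classical dendritic cells, had 9.42, 11.7 and 8.99 CPM in mutant and 3.49, 5.09 and 4.79 CPM in WT progenitors (1.12 ± 0.23, adjusted p = 0.00678). It was higher in hESCs at D0, at 43.4, 42.3 and 44.4 CPM in mutant and 31.8, 34.2 and 36.2 CPM in WT libraries. Its level is therefore not particular to dendritic cells in these data. CLEC10A, a lectin of dendritic cells, had 6.01, 8.72 and 12.4 CPM in mutant and 1.20, 1.32 and 4.05 CPM in WT progenitors (1.98 ± 0.44, adjusted p = 0.0101). The lipid-presenting CD1C (1.31 ± 0.35, adjusted p = 0.0255) and CD1E (2.77 ± 0.87, adjusted p = 0.0459) were higher on few counts, and each was called in 10 of 15 alternatives.

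Of 19 monocyte and macrophage markers, 7 of 18 tested were higher and 6 lower at D16, with summed levels of 573 to 820 TPM in mutant and 438 to 582 TPM in WT libraries. For this and the following lists, the shares to compare with are 28.5% of all genes called at D16 and 13.1% called higher. B cell markers were at 26.1 to 30.3 TPM in mutant and 19.7 to 30.5 TPM in WT libraries, with the defining marker MS4A1 (CD20) at 0 in all 6. Markers of eosinophils, basophils and mast cells were far lower in mutant progenitors, at 10020 to 15236 TPM against 41516 to 78555 TPM in WT progenitors, and 8 of these 11 genes were called lower and 1 higher. Erythroid and megakaryocyte markers were at 895 to 987 TPM in mutant and 545 to 617 TPM in WT libraries, with 6 of 10 called higher and none lower. Endothelial markers were at 188 to 216 TPM in mutant and 120.3 to 155 TPM in WT libraries, with 6 of 8 called higher and none lower. The part of these markers in the D16 difference was not tested.

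At D30 none of 11 tested dendritic markers was called, and their summed level was 109, 77.8 and 77.1 TPM in mutant and 262, 131 and 102 TPM in WT libraries, with replicate 1 the highest of each genotype. The smallest p-values were those of the chemokine CCL22 (−0.96 ± 0.35, adjusted p = 0.108) and of CD1C (−0.89 ± 0.38, adjusted p = 0.160), which were called in 6 and 4 of 16 alternatives. For each list here, the share to compare with is the 20.6% of all genes called at D30. Macrophage markers were at 2231 to 3366 TPM in mutant and 4549 to 6111 TPM in WT libraries, with 12 of 19 called lower and none higher. Eosinophil, basophil and mast cell markers were lowest in replicate 1 of each genotype, at 3303, 6804 and 8289 TPM in mutant and 2204, 9252 and 8604 TPM in WT libraries, with 4 of 11 called higher and none lower. Erythroid and megakaryocyte markers were highest in replicate 1 of each genotype, as most members were, at 1619, 988 and 753 TPM in mutant and 744, 493 and 485 TPM in WT libraries, with 5 of 6 tested called higher and none lower. The part of these markers in the spread of the members at D30 was not tested.

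**Figure D4:**
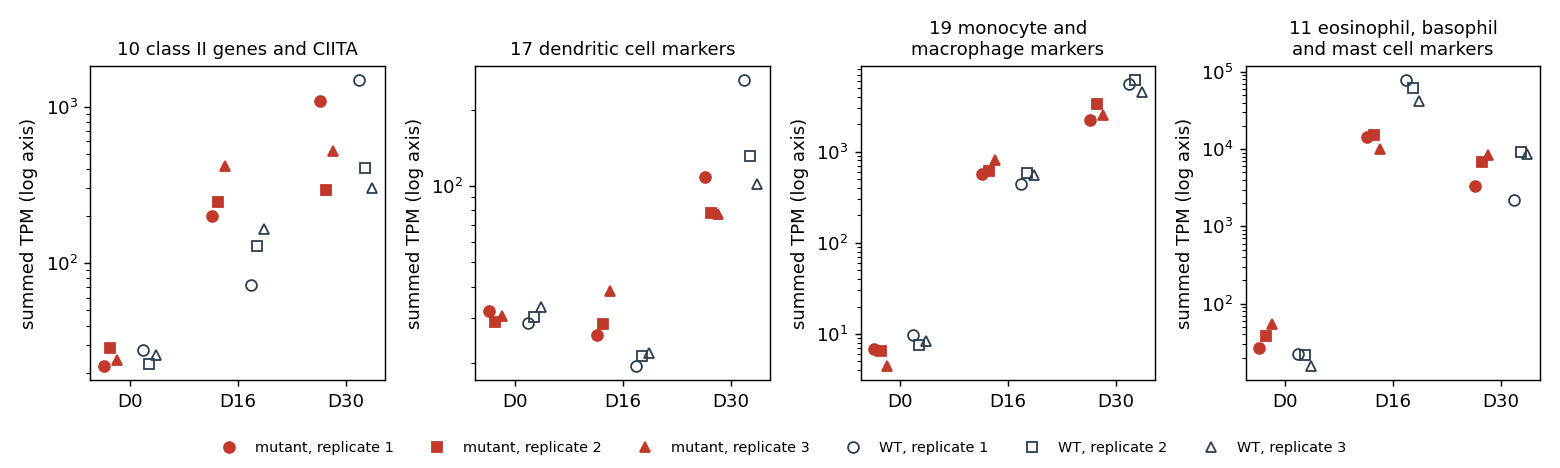
Summed TPM (y axis, log scale) of the 10 members and of the dendritic, monocyte and macrophage, and eosinophil, basophil and mast cell marker lists at D0, D16 and D30 (x axis), with USB1 mutant libraries filled and left of the open WT libraries. At D16 the mutant libraries have the higher dendritic sums, 25.8 to 38.5 TPM, and the lower eosinophil, basophil and mast cell sums, 10020 to 15236 TPM, and at D30 they have the lower macrophage sums. The dendritic sums of D0 were 29.0 to 32.0 TPM in mutant and 28.6 to 33.3 TPM in WT libraries.

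Over the 18 libraries the members followed one another, as a description of libraries that share day and genotype. Pearson's r of log2(CPM + 1) was 0.964 between CD74 and CIITA, 0.980 between CD74 and HLA-DRB1 and 0.950 between HLA-DQA1 and HLA-DQB1. HLA-DPB1, which was already present at D0, was the least like the others, at 0.519 with CD74 and 0.623 with HLA-DPA1. Among 12395 other genes with a mean of at least 5 CPM, those most like CIITA were GYPE (0.978), SLFN14 (0.974), CCR6 (0.971) and MYL4 (0.970). For HLA-DRA, with its 7 counts, the highest r was 0.599 with E2F3, followed by SLC37A4, EBAG9, C1orf174 and UBAC2, and carries no information on its level. For CD74, added after its values were seen, the nearest genes were HBZ (0.979), HEMGN (0.977), DCAF11 (0.975), GYPB (0.974) and FGD2 (0.973).

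The mRNA of the mutated gene does not serve as a check of the labels, since a frameshift need not alter its level. USB1 had 84.0, 85.5 and 89.0 CPM in mutant and 73.9, 80.6 and 85.2 CPM in WT hESCs, and was not called at D0, D16 or D30. The summed level of 7 pluripotency markers was 3671 to 4222 TPM in mutant and 3776 to 4041 TPM in WT libraries at D0 and at most 39.4 TPM in every library of D16 and D30. CD34, the stem and progenitor marker that defines the D16 cells, had 131, 152 and 159 CPM in mutant and 74.2, 114 and 169.7 CPM in WT libraries at D16, and at most 6.09 CPM at D0. PTPRC (CD45), a marker of white blood cells, was at 0.516 CPM or less at D0. At D16 it had 581, 466 and 419 CPM in mutant and 709.5, 819.8 and 590.3 CPM in WT libraries, lower in the mutant (−0.57 ± 0.17, adjusted p = 0.0389).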

How the data were processed

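Total RNA depleted of rRNA was made into strand-specific libraries. The submitters' processing notes name Trimmomatic 0.36 for trimming, Salmon 0.13.1 for quantification on GRCh38 and DESeq2, whose version is not given there. The tables deposited by the authors hold, per gene and library, Salmon's expected count, the abundance in TPM and an effective transcript length in bases. Expected counts were rounded to whole numbers.

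Symbols and coordinates came from GENCODE 44, which matched 35051 identifiers. The 117 without a symbol held 0.238% of counts and stayed in the tests. There were 0 columns of samples not listed. Genotypes were compared per day with edgeR 4.0.16 (R 4.3.3; filterByExpr, TMM, glmQLFit, glmQLFTest) on 6 libraries. Days and interactions were fitted over 18 libraries. Calls are at a Benjamini-Hochberg adjusted p under 0.1 over all genes tested.

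The members and lists were chosen with earlier results of these data known. Named beside the members are up to 4 called genes with the smallest adjusted p per list and day described, or 2 where none was called, and the 5 genes most like CIITA and HLA-DRA. Some genes that this rule would name are not reported here and were left out of their list's counts. Other lists are given as counts and sums. T and NK, neutrophil, erythroid and megakaryocyte, and endothelial markers were also counted: at D16 2 of 6, 0 of 9, 6 of 10 and 6 of 8 tested were higher and 0, 8, 0 and 0 lower in mutant cells. Of all genes, 28.5% were called at D16 and 13.1% were called higher.

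Same-numbered libraries of the genotypes deviated together at D0 (r = 0.250, 0.145 and 0.190 over 14719 genes) and D16 (0.119, 0.200 and 0.323 over 14528 genes), so the replicate block is given beside those results where it changes a call. The pairing comes from the data, not from the labels.

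Alternatives were RLE scaling, no count filter, at least 5 CPM in 3 libraries, DESeq2 1.42.0, lengths as offsets, the 18-library fit, an adjusted p under 0.05, each library left out and the replicate block. The edgeR and DESeq2 fits were tested on simulated counts, for mutant over WT at D16 and for the interaction from D0 to D16.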

Additional observations from a re-analysis of the deposited data

Results flagged for a closer look

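None of the tested members was called by the interaction test of the 18-library fit (edgeR, adjusted p under 0.1). HLA-DQA1 and HLA-DPA1 had too few counts at D0 to be judged from that day. Of the 21 genes named beside the members, 13 were called over an interval. Over all genes, 7.61% were called from D0 to D16, 20.5% from D16 to D30 and 10.9% from D0 to D30. From D0 to D16 the log2 difference of mutant over WT moved by 1.84 for PRDM1, 1.28 for LGMN, −0.69 for RFXANK and −1.06 for IFI30. From D16 to D30 it moved down for the dendritic markers CLEC10A (−2.91), CD1C (−2.24), CD1E (−3.77) and ZBTB46 (−1.11), and for IRF8 (−1.25) and LGMN (−1.44). It also moved down over that interval for USF1 (−0.47) and NFYB (−0.64), and up for MARCHF8 (1.04). From D0 to D30 it moved by 1.52 for PRDM1, −0.88 for IFNGR2, 0.77 for MARCHF8 and −1.24 for IFI30. CD1C was also called over that interval, but on 1, 2 and 2 counts in mutant and 0 in WT libraries at D0, so no size is given. The genes were named for their difference at a single day, so a change between days is in part fixed by that choice. Their count therefore cannot be set against that of the members or the share of all genes.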

How the results depend on the processing

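The D16 difference kept its direction for all 7 tested members in every alternative run, and CIITA kept its call in all 16. Of the 7, 3 were called at D16 in the fit over 18 libraries and 4 under the stricter filter (5 CPM), which kept 4 for testing. Leaving out libraries gave 2 to 7 members called at D16, 0 to 1 at D0, 0 at D30, 2 to 7 for D30 over D16 in WT cells and 0 to 2 for the interaction from D16 to D30. With no count filter, 1 member was called at D30 (HLA-DMB, on 11 counts in mutant and 0 in WT libraries) and 1 in the interaction from D16 to D30 (HLA-DPA1).

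At D30, each of the 7 tested members changed sign with some libraries left out. The log2 fold changes ran from −0.15 to 1.22 for HLA-DRB1, −0.85 to 1.52 for HLA-DPA1, −2.02 to 1.19 for HLA-DPB1, −1.39 to 1.94 for HLA-DQA1, −1.02 to 1.87 for HLA-DQB1, −0.48 to 1.15 for CD74, −0.33 to 1.41 for CIITA and −0.071 to 1.94 for HLA-DRB5. HLA-DPB1 was at 0.081 with the deposited lengths as offsets. HLA-DPB1 at D0 ran from −1.01 to 0.056. For D30 over D16 in mutant cells, CIITA ran from −0.96 to 0.59 and HLA-DPB1 from −1.51 to 1.33. The cause of these changes was not tested. Over all single genes named, 476 values kept direction and call under settings that keep every library, 14 lost a call, 15 gained one and 5 reversed direction. With libraries left out the numbers were 409, 70, 5 and 23.

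Replicate numbers did not pair the D30 libraries, where the correlation of same-numbered libraries was 0.147, −0.04 and 0.257 and mutant replicate 1 was most like WT replicate 2 (0.213). With the replicate block, 1 member was called at D0, 1 at D30 (CIITA, 0.52, adjusted p = 0.0883), 2 in the interaction from D0 to D16 and 3 in that from D16 to D30 (CIITA, HLA-DRB1 and HLA-DPB1). HLA-DPA1 (0.89), HLA-DQA1 (0.18) and HLA-DQB1 (0.30) at D30 and CIITA for D30 over D16 in mutant cells (−0.11) changed sign under the block. It changed no call of a member at D16.

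No member had a second identifier, so summing over symbols was not run. The leave-outs of both libraries of a number at one day, and the ratios in TPM, were added after seeing the data. The 3 members at or near 0, in a region where common genes are also listed at 0, could not be measured, and with 3 libraries per group an exact test of a single value could not go below 0.1.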
